A study of Mus musculus with 14 samples.

Results

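The genes described here are the 100 whose transcripts stood highest above the rest of the time course at both week 1 (W1) and week 2 (W2) of SOX9 induction in mouse epidermal stem cells (EpdSCs). RNA-seq had been run before induction (D0) and after 1, 2, 6 and 12 weeks of it, and levels are given as TPM, the share of transcripts scaled to 1000000 per library after correction for transcript length. Of 54332 genes, 13005 had a symbol and averaged 1 TPM or more over all libraries, and they were ranked by a score, which was the lower of the W1 and W2 means of log2(TPM + 1) minus the highest of the D0, W6 and W12 means. The 100 highest scores, which were 0.85 or more with a median of 1.07, define the members. The median score over all ranked genes was -0.40, and 2491 genes (19.2%) scored above 0. The members were chosen by the TPM of these same libraries, and each of the 5 time means enters the score. Differences between times within the members are therefore given as a description. The number of members past the limma threshold is printed beside the share of all genes past it, and neither the number nor a call of any single member is read as a result. The score favours genes with like levels at W1 and W2 and holds down D0, W6 and W12 together, and 13 members averaged under 1 TPM over those 6 libraries and met the minimum only through W1 and W2.

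All mice were CD1 animals, male by label, with the alleles *K14rtTA* and *TRE-myc-Sox9*, so that doxycycline (DOX) switched on MYC-tagged SOX9 in cells in which the *Krt14* promoter drives rtTA. In mice that were not grafted, DOX was given from postnatal day 21 (P21). Live basal cells were sorted as negative for CD31, CD45, CD117 and CD140a, high for CD49f, negative for CD34 and high for Ly6A. D0 cells came from P21 mice at the start of DOX, W1 cells from P28, W2 cells from P35 and W6 cells from P63 mice. W12 cells came from newborn transgenic skin that was grafted onto Nude female hosts and healed before DOX began. Each time had 2 biological replicates, and cells of mice without the transgene were not part of the time course. Age and time on DOX cannot be told apart in these libraries, and grafting and 12 weeks of SOX9 cannot be told apart at W12. In bulk libraries, fewer cells of a type and less RNA per cell cannot be told apart.

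SOX9 is an HMG-box transcription factor that marks and maintains hair follicle stem cells (HFSCs) and is absent from most interfollicular EpdSCs. EpdSCs sit in the basal layer and renew the epidermis, whereas HFSCs sit in the bulge of the follicle and regenerate hair. Hedgehog, Wnt and BMP signals help to set these fates apart, and Hedgehog signalling also drives basal cell carcinoma.

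The transgene transcript was at 89.6 and 45.6 TPM at D0, 3387 and 3414 at W1, 1892 and 1469 at W2, 1108 and 859 at W6, and 606 and 903 at W12. It was thus highest at W1 and W2 and lay above D0 in every later library. The members are highest at these times because the rule chose them so, and nothing is read from the likeness. *Krt14*, the basal keratin, lay between 19997 and 37666 TPM, *Ly6a* between 268 and 1168 TPM, and *Cd34* between 0.0475 and 0.383 TPM from D0 to W2, as the sort gate asks, but at 2.66 and 5.04 TPM at W6 and 16.5 and 32.0 TPM at W12. Replicate 2 of D0 had *Xist* at 4.61 TPM and *Ddx3y* at 0.0279 TPM, which goes against its label of a male mouse. Both W12 libraries held *Xist* (5.51 and 3.5 TPM) together with *Ddx3y* (11 and 12.9 TPM). Summed TPM over 18 immediate-early and stress genes was 35256 and 56937 at D0 against 7189 to 15545.5 in the later libraries. At W12, the summed level of 12 T cell and Langerhans cell markers was 234 and 254 TPM against 9.59 to 56.7 TPM before, led by *Cd74* and the MHC class II genes. For 6 Merkel cell markers it was 80.2 and 253 TPM at W12 against 0.106 to 9.79 TPM, led by *Krt8* and *Krt18*. At W12, 0 of the 12 and 1 of the 6 markers were listed at 0 in both libraries. Averaged over all 10 libraries, only 5 of the 12 and 2 of the 6 reached 1 TPM. The sum over 14 markers of fibroblasts, endothelium and muscle was 49.8 and 99.6 TPM at W12 and 60.4 TPM in W6 replicate 2 against 4.9 to 13.9 TPM in the other 7 libraries, and 2 of these markers were listed at 0 in both W12 libraries. Only 3 of the 14 averaged 1 TPM or more over all libraries. The sum held *Pecam1*, which encodes the CD31 of the sort gate, at 26.1 and 59.8 TPM at W12. In W6 replicate 2 most of the sum was the fibroblast marker *Dcn*. The sum over 8 melanocyte markers was 14.1 and 12.4 TPM at W12 against 2.09 to 13.1 TPM before. The part of these differences in the results below was not tested.

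In 91 of the 100 members, all 4 libraries of W1 and W2 lay above all 6 libraries of D0, W6 and W12. The same held for 7.00% of all ranked genes, and since the score was built from these libraries nothing is read from that contrast. The 9 members in which a library overlapped were *Gm21586*, *Rpl17-ps5*, *Phyhip*, *Samd5*, *Mir7238*, *Rpl15-ps2*, *Arrb1*, *Rpl15-ps6* and *Gm47290*. Mean TPM over the 4 peak libraries ran from 2.11 to 3546, with a median of 26.6. It was under 10 TPM in 22 members, between 10 and 100 TPM in 57 and at least 100 TPM in 21. The mean TPM of the 4 peak libraries was between 1.80 and 34.5 times the mean of the other 6, with a median of 3.56, leaving out *Gm21586* and *Mir7238*, which were listed at 0 in all other 6 libraries. W1 was the highest time in 52 members and W2 in 48. The next-highest time was D0 in 47 members, W6 in 48 and W12 in 5, and the lowest time was W12 in 68, D0 in 24 and W6 in 8.

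**Figure D1:**
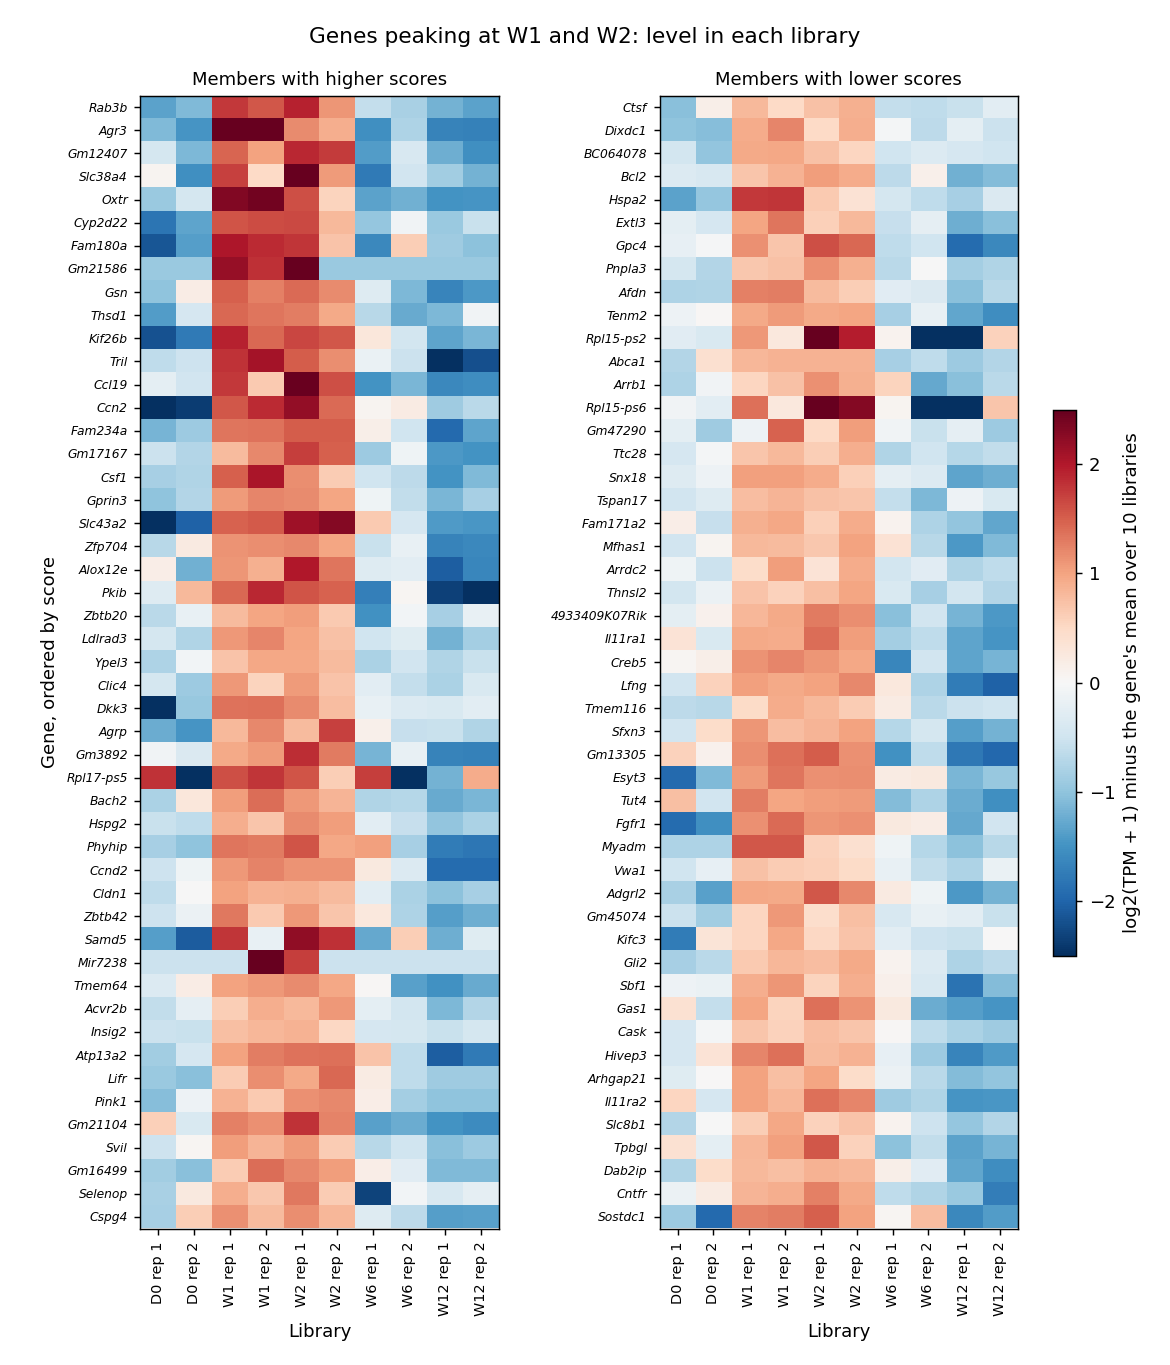
Level of the members named here in each of the 10 libraries, as log2(TPM + 1) minus the gene's own mean over the libraries, in order of the score; colours saturate at 2.5 above and below the mean. The 4 middle columns (W1 and W2) are above the gene's mean in nearly all rows because the rule asked for it, and many rows are darker blue at W12 than at D0 or W6.

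Of the 100 members, 10 lie within 1 stretch of chromosome 4 of 1099 kb (GRCm38, 41657498 to 42756577, from *Cntfr* to *Ccl19*), a region rich in near-identical gene copies. Of 21 ranked genes in it, 10 were members, 17 scored above 0 and 15 had all 4 peak libraries above the other 6, against 19.2% and 7.00% of all ranked genes. The members set both ends of the stretch and are counted in these numbers, so nothing is read from them. Outside the members, *Galt*, which acts in galactose breakdown, was at rank 103, and *Ccl27a*, the keratinocyte chemokine that attracts skin-homing T cells, was at rank 418 with 6118 to 10599 TPM in the W1 and W2 libraries and 323 to 5349 TPM in the other 6. Chromosome 4 as a whole held 21 members against 6.41% of all ranked genes. The members of the stretch were *Cntfr*, *Il11ra1*, *Gm12407*, *4933409K07Rik*, *Gm3892*, *Gm13305*, *Gm17167*, *Gm21586*, *Il11ra2* and *Ccl19*. In all of these but *Cntfr*, at least 50% of the 31-base words of the transcripts also occur in another gene. Reads in such sequence can be split between copies by the quantification, so the levels of the single copies are uncertain and the 9 genes are not 9 separate observations. The level of *Ccl27a* is uncertain for the same reason, since 57.0% of its words occur in another gene. Across all members, 13 of 99 matched to the annotation (13.1%) shared that much, against 8.33% of all ranked genes, the others being *Rpl17-ps5*, *Rpl15-ps2*, *Rpl15-ps6* and *Mir7238*.

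The copies of the IL-11 receptor alpha gene show how close the sequences are. *Gm13305* and *Il11ra2* have promoters that share a run of 299 of 300 bases, whereas the 2 promoter windows of *Il11ra1* share no run longer than 8 bases with them. The windows below, from RefSeq on GRCm38.p6, run from 250 bases before to 50 bases after the annotated start and are written 5′ to 3′ on the gene's strand. They are shown so that the letters of the shared promoter can be set beside those of *Il11ra1*, whose level had the same course.
Gm13305 promoter, chr4:42168554-42168853 (minus strand): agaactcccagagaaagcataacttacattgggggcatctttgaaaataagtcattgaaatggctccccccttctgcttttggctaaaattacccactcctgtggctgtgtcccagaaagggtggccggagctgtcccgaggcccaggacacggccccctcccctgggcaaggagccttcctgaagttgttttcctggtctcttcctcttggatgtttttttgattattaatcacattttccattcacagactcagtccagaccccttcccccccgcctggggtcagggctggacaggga
Il11ra1 promoter, chr4:41760193-41760492 (plus strand): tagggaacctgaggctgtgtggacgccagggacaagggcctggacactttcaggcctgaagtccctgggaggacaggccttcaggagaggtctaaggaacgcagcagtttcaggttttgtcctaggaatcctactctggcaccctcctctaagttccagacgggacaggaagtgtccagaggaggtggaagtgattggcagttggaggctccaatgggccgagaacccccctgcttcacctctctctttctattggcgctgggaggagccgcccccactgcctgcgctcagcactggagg

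*Il11ra1*, which with gp130 forms the receptor for the cytokine IL-11, was at 116 and 70 TPM at D0, 176 and 174 at W1, 242 and 189 at W2, 49.7 and 58 at W6, and 35.6 and 32.1 at W12. Its near copy *Gm13305* was at 198 and 144 TPM at D0, 299 and 346 at W1, 382 and 293 at W2, 45.9 and 85.4 at W6, and 38 and 33.5 at W12. *Il11ra2*, another copy, was at 42.3 and 21.2 TPM at D0, 59.2 and 51.9 at W1, 76.4 and 68.5 at W2, 15.2 and 16.7 at W6, and 9.79 and 9.93 at W12. All 3 were highest in the 4 libraries of W1 and W2, intermediate at D0 and lower at W6 and W12, with no overlap between the peak libraries and the rest. *Ccl19*, a chemokine that guides T cells and dendritic cells through CCR7, was at 2.09 and 1.63 TPM at D0, 11.5 and 4.77 at W1, 19.3 and 10.1 at W2, 0.295 and 0.649 at W6, and 0.197 and 0.251 at W12. *Gm12407*, of which 80.6% of 31-base words occur elsewhere, was at 1.13 and 0.332 TPM at D0, 6.92 and 4.83 at W1, 9.64 and 8.69 at W2, 0.101 and 1.19 at W6, and 0.248 and 0 at W12. In both of them the lowest peak library stood above the highest of the other 6. *Gm21586* was listed at 0 in 7 libraries and at 7.67 and 5.79 TPM at W1 and 10 TPM in W2 replicate 1, so that W2 replicate 2 is among those at 0. *Gm17167* had 7.44 to 15.2 TPM in the W1 and W2 libraries and 0.736 to 3.55 TPM in the other 6, and *Gm3892* 11.4 to 22 TPM in the W1 and W2 libraries and 0.977 to 5.03 TPM in the other 6.

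**Figure D2:**
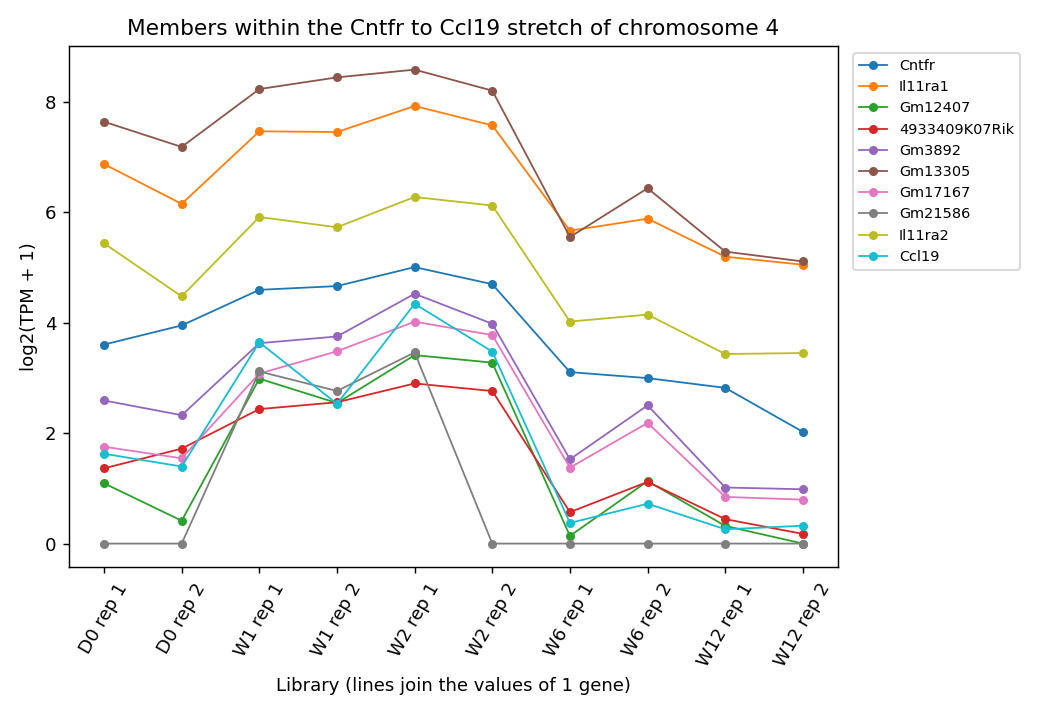
Level of the 10 members on the chromosome 4 stretch in each library, as log2(TPM + 1); each line joins the values of 1 gene over the libraries in order of time. The lines rise at W1 and W2 and fall at W6 and W12 together, except that *Gm21586* is at 0 in W2 replicate 2.

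The *Il11ra* copies and *Cntfr* belong to a larger group of 8 members that are cytokines, chemokines or their receptors: *Il11ra1*, *Il11ra2*, *Gm13305*, *Lifr*, *Cntfr*, *Ccl19*, *Csf1* and *Tril*. *Lifr*, the receptor for leukaemia inhibitory factor, had 42.2 to 74.8 TPM in the W1 and W2 libraries and 12.5 to 31.2 TPM in the other 6. *Cntfr*, the receptor subunit that binds ciliary neurotrophic factor, had 23.1 to 31.1 TPM in the W1 and W2 libraries and 3.06 to 14.5 TPM in the other 6. The IL-11, LIF and CNTF receptors all signal through gp130, and *Il6st*, which encodes gp130 and was looked at after the members were known, did not share the pattern, with 39.3 and 61.1 TPM at D0, 30.6 and 24.1 at W1, 27.1 and 21.4 at W2, 7.17 and 8.63 at W6, and 24.6 and 44.3 at W12. Nor did 2 further receptors of the family, of which *Osmr*, the oncostatin M receptor, was at 18.6 and 19.5 TPM at D0, 16.3 and 14.9 at W1, 12.6 and 12.5 at W2, 9.21 and 9.25 at W6, and 19.9 and 22.9 at W12, and *Il6ra*, which binds IL-6, was at 44 and 70.7 TPM at D0, 31.4 and 30.7 at W1, 24.9 and 25.4 at W2, 4.66 and 7.74 at W6, and 6.96 and 5.8 at W12. The D0 libraries of all 3 thus lay above those of W1 and W2. *Csf1*, the growth factor of macrophages and osteoclasts, was at 7.02 and 7.42 TPM at D0, 39.2 and 57.3 at W1, 31.1 and 21.1 at W2, 9.11 and 8.07 at W6, and 4.06 and 5.65 at W12. *Tril*, an accessory protein of Toll-like receptor 4, was at 4.48 and 4.95 TPM at D0, 28.9 and 35.1 at W1, 23.4 and 18.2 at W2, 6.56 and 4.88 at W6, and 0.514 and 0.872 at W12. Both were highest at W1 in both replicates and then lower at W2, and the 4 peak libraries of each lay clear of the other 6. *Tril* overlaps the gene model *Gm16499*, also a member with 2.67 to 5.22 TPM in the W1 and W2 libraries and 0.101 to 1.64 TPM in the other 6, on the opposite strand, and since no use of strand is given in the sources used here, the reads of these 2 cannot be told apart.

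After the peak, the *Il11ra* copies stood below D0. *Il11ra1* differed from D0 by -0.74 ± 0.23 (SE) at W6 and by -1.39 ± 0.23 (SE) at W12 on the log2(TPM + 1) scale, with SEs from a limma fit over all genes. *Gm13305* differed from D0 by -1.42 ± 0.29 (SE) and -2.21 ± 0.29 (SE). *Tril* was near its D0 level at W6, and at W12 it differed by -1.76 ± 0.22 (SE) from D0 and by -1.99 ± 0.22 (SE) from W6.

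Lipid and steroid metabolism gave 7 members, among them *Cyp2d22*, *Alox12e*, *Insig2*, *Selenop*, *Pnpla3* and *Abca1*. *Cyp2d22*, a cytochrome P450 enzyme, was at 0.331 and 0.9 TPM at D0, 13 and 13.7 at W1, 13.9 and 7.34 at W2, 1.41 and 3.46 at W6, and 1.47 and 2.23 at W12. *Alox12e*, an epidermal lipoxygenase, was at 225 and 85.5 TPM at D0, 429.6 and 369.9 at W1, 796 and 502 at W2, 159 and 165 at W6, and 46.8 and 63.5 at W12. In both of these genes no library of D0, W6 or W12 reached a peak library. *Insig2*, which holds back the SREBP activators of sterol synthesis in the endoplasmic reticulum, had 109 to 140.0 TPM in the W1 and W2 libraries and 51.5 to 56.5 TPM in the other 6. *Abca1*, which exports cholesterol from cells, had 14.8 to 15.3 TPM in the W1 and W2 libraries and 3.79 to 10.8 TPM in the other 6. *Selenop*, a selenium carrier that is grouped here with lipid metabolism only loosely, had 53.9 to 86.6 TPM in the W1 and W2 libraries and 6.12 to 40.9 TPM in the other 6, and *Pnpla3*, a lipase of lipid droplets, 57.6 to 80.4 TPM in the W1 and W2 libraries and 19.5 to 35.9 TPM in the other 6. *Alox12e* differed from D0 by -1.33 ± 0.40 (SE) at W12. None of the 24 ranked genes of a fixed list for cholesterol and fatty acid synthesis was a member, and none of them scored above 0. Of all 13005 ranked genes, 100 are members and 19.2% scored above 0.

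Growth factor, hormone and developmental signalling was the largest group, with 15 members. Ligands and secreted antagonists came first. *Ccn2*, a matricellular protein and a common readout of YAP and TGF-beta activity, was at 7.27 and 15.3 TPM at D0, 248 and 307 at W1, 385 and 226 at W2, 87.6 and 96.9 at W6, and 45 and 52.1 at W12. *Dkk3*, a secreted member of the Dickkopf family, was at 4.64 and 16 TPM at D0, 82.9 and 84 at W1, 73.4 and 55.3 at W2, 27.9 and 24.8 at W6, and 24.3 and 26.5 at W12. *Sostdc1*, a secreted antagonist of BMP and Wnt ligands, was at 316 and 154 TPM at D0, 1409.7 and 1456 at W1, 1692 and 1205 at W2, 615 and 1026 at W6, and 196 and 226 at W12. Both replicates of W6 lay above both of D0 in all 3. *Agrp*, the antagonist of melanocortin receptors, was far lower, with 1.27 and 0.927 TPM at D0, 8.47 and 11.3 at W1, 8.28 and 16.5 at W2, 4.86 and 2.6 at W6, and 2.64 and 2.18 at W12.

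Among receptors and their co-factors, *Oxtr*, the oxytocin receptor, was at 0.482 and 1.08 TPM at D0, 13.1 and 14.1 at W1, 7.7 and 3.15 at W2, 0.122 and 0.237 at W6, and 0 and 0.0166 at W12. It was near 0 at W6 and W12 and lower in both W2 libraries than in both W1 libraries. *Fgfr1*, a receptor for fibroblast growth factors, was at 6.03 and 8.13 TPM at D0, 57.3 and 69.5 at W1, 56.4 and 57.3 at W2, 30.6 and 29 at W6, and 9.9 and 18 at W12. *Adgrl2*, an adhesion G-protein-coupled receptor of the latrophilin family, had 30.2 and 20.3 TPM at D0, 106 and 104 at W1, 160.1 and 126 at W2, 63 and 50 at W6, and 19.4 and 23.3 at W12. *Acvr2b*, a type II receptor for activins, had 8.3 to 11.9 TPM in the W1 and W2 libraries and 1.77 to 4.18 TPM in the other 6. *Gas1*, a co-receptor for Hedgehog ligands, had 249 to 442 TPM in the W1 and W2 libraries and 60.3 to 221 TPM in the other 6. *Gpc4*, a cell-surface heparan sulfate proteoglycan, had 45.2 and 51.8 TPM at D0, 117 and 86.1 at W1, 162 and 144 at W2, 33.7 and 36.8 at W6, and 13 and 16.6 at W12, and *Extl3*, an enzyme that builds heparan sulfate, 11.2 to 19.2 TPM in the W1 and W2 libraries and 2.43 to 5.84 TPM in the other 6. *Lfng*, the fringe enzyme that modifies Notch receptors, *Dixdc1*, a Wnt pathway protein, and *Arrb1*, which uncouples G-protein-coupled receptors, completed the group with *Gli2*. *Gli2*, the main activator of Hedgehog target genes, was at 0.532 and 0.702 TPM at D0, 3.29 and 3.84 at W1, 3.62 and 4.27 at W2, 1.87 and 1.14 at W6, and 0.589 and 0.717 at W12. It was low throughout, and its 4 peak libraries did not overlap the others.

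Of a fixed list of Hedgehog, Wnt and BMP genes, 27 were ranked and 3 were members (*Dkk3*, *Gli2* and *Sostdc1*), against 100 of all 13005 ranked genes. *Ptch1*, the Hedgehog receptor and target, came next at rank 375, with 3.06 to 4.35 TPM in the W1 and W2 libraries and 0.844 to 2.77 TPM in the other 6, followed by *Sfrp1* at 716 and *Gli3* at 1500. The ligands *Wnt5a*, *Bmp2*, *Wnt3*, *Bmp4* and *Wnt7b* had low scores, between -3.31 and -2.38. They were picked after their scores were seen, and the scores of the other ligands of the list are not given here. Against D0, 5 genes of the list were higher and 12 lower at W6, and 3 were higher and 10 lower at W12, by limma with Benjamini-Hochberg adjustment over 13110 genes (adjusted P under 0.05). Over all genes tested, 18.3% were higher and 14.1% lower at W6, and 17.9% higher and 25.1% lower at W12.

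Cytoskeleton, junctions and polarity held 11 members, among them *Gsn*, *Kif26b*, *Clic4*, *Cldn1*, *Svil*, *Afdn*, *Myadm*, *Kifc3*, *Cask* and *Arhgap21*. *Gsn*, gelsolin, which severs and caps actin filaments, was the most abundant member in TPM and was at 688 and 1574 TPM at D0, 3941 and 3348 at W1, 3725 and 3168 at W2, 1112 and 638 at W6, and 442 and 513 at W12. *Kif26b*, a kinesin-family protein of cell polarity, was at 0.581 and 1.09 TPM at D0, 26 and 18.4 at W1, 21.8 and 19.9 at W2, 7.7 and 4.16 at W6, and 1.85 and 2.24 at W12. *Cldn1*, a claudin that seals the epidermal tight junction barrier, was at 154 and 238 TPM at D0, 480.3 and 441 at W1, 446 and 417 at W2, 199.8 and 138 at W6, and 117 and 134 at W12. In each, the groups did not overlap. *Afdn*, afadin, which links nectins to actin at adherens junctions, was at 68.2 and 69.3 TPM at D0, 283 and 287 at W1, 204 and 181 at W2, 96 and 91.3 at W6, and 56.4 and 72.1 at W12. *Myadm*, a membrane-raft protein, was at 99.9 and 99.9 TPM at D0, 509 and 504 at W1, 256 and 228 at W2, 159.8 and 104 at W6, and 84.4 and 107 at W12. Both stood higher in the 2 libraries of W1 than in those of W2, and both W2 libraries remained above D0, W6 and W12. *Clic4*, an intracellular chloride channel protein, had 218 to 313 TPM in the W1 and W2 libraries and 78.1 to 122 TPM in the other 6. *Kifc3*, a minus-end kinesin, was close to its limit, since D0 replicate 2 reached 19.0 TPM and the lowest peak library 22.1 TPM.

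The matrix and cell surface group had 5 members, *Thsd1*, *Hspg2*, *Cspg4*, *Tenm2* and *Vwa1*. *Hspg2*, perlecan, a large proteoglycan of basement membranes, was at 1.38 and 1.25 TPM at D0, 5.54 and 4.67 at W1, 6.88 and 6.19 at W2, 1.91 and 1.35 at W6, and 0.756 and 1.02 at W12. *Thsd1*, a membrane protein with a thrombospondin repeat, had 5.69 to 8.34 TPM in the W1 and W2 libraries and 0.325 to 2.28 TPM in the other 6. *Tenm2*, a teneurin adhesion protein, had 23.8 to 25.7 TPM in the W1 and W2 libraries and 3.37 to 12 TPM in the other 6. *Hspg2* was the only member among 24 ranked genes of a fixed extracellular matrix list, against 100 of all 13005 ranked genes. By limma (adjusted P under 0.05), 2 genes of the list were higher and 18 lower at W6 against D0, against 18.3% and 14.1% of all genes tested. At W12 against D0, 3 were higher and 12 lower, against 17.9% and 25.1%. At W12 against W6, 5 genes of the list were higher and 1 was lower, against 6.66% and 13.5% of all genes tested.

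Cell cycle, survival and growth control gave 5 members, *Pkib*, *Ypel3*, *Ccnd2*, *Bcl2* and *Dab2ip*. *Ccnd2*, cyclin D2, which drives entry into the cell cycle, was at 446 and 598 TPM at D0, 1359 and 1512 at W1, 1397 and 1394 at W2, 764 and 504 at W6, and 168 and 167 at W12. Its 4 peak libraries were close to each other and above all others. *Ypel3*, a protein reported to restrain growth, had 156 to 187 TPM in the W1 and W2 libraries and 54.4 to 91.1 TPM in the other 6. *Bcl2*, which blocks apoptosis, had 7.04 to 9.27 TPM in the W1 and W2 libraries and 1.16 to 4.4 TPM in the other 6, and *Pkib*, an inhibitor of protein kinase A, 46.3 to 64.4 TPM in the W1 and W2 libraries and 1.43 to 29.9 TPM in the other 6. None of 26 ranked genes of a fixed list for S phase and mitosis was a member, and none scored above 0. Of all 13005 ranked genes, 100 are members and 19.2% scored above 0. At W12 *Ccnd2* differed by -1.62 ± 0.21 (SE) from D0 and by -1.88 ± 0.21 (SE) from W6.

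Transcription and RNA gave 7 members. The regulators were *Zfp704*, *Zbtb20*, *Bach2*, *Zbtb42*, *Creb5* and *Hivep3*, and *Tut4* adds uridines to RNA ends. *Zbtb20*, a repressor of the BTB zinc-finger family, had 21.9 to 29.4 TPM in the W1 and W2 libraries and 4.1 to 12.9 TPM in the other 6. *Bach2*, a repressor known from lymphocytes, had 4.44 to 6.95 TPM in the W1 and W2 libraries and 0.258 to 2.67 TPM in the other 6. *Zfp704*, a zinc-finger protein, had 14.8 to 17.1 TPM in the W1 and W2 libraries and 1.49 to 8.23 TPM in the other 6. *Zbtb42* had 6.08 to 10.2 TPM in the W1 and W2 libraries and 0.721 to 4.42 TPM in the other 6. The fixed lists for HFSCs, nuclear receptors and immediate-early genes, which hold many transcription factors, had no gene among the members. They hold 21, 21 and 18 ranked genes, and only 100 of all 13005 ranked genes are members, so nothing is read from this. In these lists 7, 3 and 1 genes scored above 0, against 19.2% of all ranked genes. All 4 peak libraries lay above the other 6 in 3, 2 and 0 of them, against 7.00%.

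Transporters gave 5 members. *Slc38a4*, a sodium-coupled transporter of neutral amino acids, was at 8.46 and 2.11 TPM at D0, 28.3 and 11.7 at W1, 49.2 and 17.8 at W2, 1.64 and 5.42 at W6, and 3.89 and 2.93 at W12. *Slc43a2*, a facilitated transporter of large neutral amino acids, was at 1.88 and 3.91 TPM at D0, 54.6 and 56.3 at W1, 85.7 and 96.5 at W2, 30.4 and 13.9 at W6, and 6.48 and 6.3 at W12. The replicates of *Slc38a4* differed by more than 2 times at every time but W12, whereas those of *Slc43a2* at W1 and W2 were close. *Atp13a2*, a lysosomal polyamine pump, had 90.6 to 119 TPM in the W1 and W2 libraries and 9.96 to 73.7 TPM in the other 6, *Sfxn3*, a mitochondrial serine carrier, 110.5 to 139.7 TPM in the W1 and W2 libraries and 24.3 to 89.3 TPM in the other 6, and *Slc8b1*, the mitochondrial sodium-calcium exchanger, 23.5 to 31.3 TPM in the W1 and W2 libraries and 7.37 to 16.5 TPM in the other 6.

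Vesicles, lysosomes, mitochondria and protein handling gave 10 members, *Rab3b*, *Agr3*, *Pink1*, *Ctsf*, *Hspa2*, *Snx18*, *Tspan17*, *Arrdc2*, *Esyt3* and *Sbf1*. *Rab3b*, a small GTPase of regulated secretion, was at 0.0913 and 0.287 TPM at D0, 8.4 and 7.03 at W1, 9.49 and 4.93 at W2, 0.818 and 0.572 at W6, and 0.22 and 0.0949 at W12. *Agr3*, a protein disulfide isomerase of the endoplasmic reticulum, was at 0.869 and 0.441 TPM at D0, 28.8 and 37.6 at W1, 8.09 and 6.57 at W2, 0.382 and 1.34 at W6, and 0.257 and 0.242 at W12. *Hspa2*, a chaperone of the HSP70 family, was at 9.71 and 12.9 TPM at D0, 91.6 and 93 at W1, 41.4 and 33.9 at W2, 18.9 and 16.5 at W6, and 14.2 and 20 at W12. *Rab3b* stayed up at W2, while in *Agr3* and *Hspa2* both W2 libraries were lower than both W1 libraries. *Pink1*, the kinase that marks damaged mitochondria for removal, had 168 to 247 TPM in the W1 and W2 libraries and 49.9 to 119.8 TPM in the other 6, and *Ctsf*, a lysosomal cysteine protease, 71.3 to 93.7 TPM in the W1 and W2 libraries and 23.8 to 55.4 TPM in the other 6. *Esyt3*, a lipid-transfer protein at membrane contacts, was at 3.75 and 7.47 TPM at D0, 37.2 and 45.1 at W1, 39.2 and 40.2 at W2, 20.2 and 20.8 at W6, and 7.28 and 8.45 at W12.

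For 13 members no role is stated: *Fam180a*, *Fam234a*, *Gprin3*, *Ldlrad3*, *Phyhip*, *Samd5*, *Tmem64*, *Ttc28*, *Fam171a2*, *Mfhas1*, *Thnsl2*, *Tmem116* and *Tpbgl*. *Fam234a* was at 53.7 and 64 TPM at D0, 308 and 312 at W1, 347 and 351 at W2, 134 and 85.6 at W6, and 31 and 48.5 at W12, with close replicates at W1 and W2. *Fam180a* had 7.49 to 20 TPM in the W1 and W2 libraries and 0.179 to 6.87 TPM in the other 6. The last 14 members were non-coding genes, pseudogenes and unnamed models: *Gm12407*, *Gm21586*, *Gm17167*, *Gm3892*, *4933409K07Rik*, *Gm21104*, *Gm16499*, *Gm47290*, *Gm45074*, *BC064078*, *Mir7238*, *Rpl17-ps5*, *Rpl15-ps2* and *Rpl15-ps6*. The 3 ribosomal pseudogenes varied widely between replicates, as *Rpl17-ps5* was at 115 and 0 TPM in the 2 libraries of D0 and at 108 and 1.37 TPM in those of W6. *Gm21104* had no entry in the annotation used here.

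**Figure D3:**
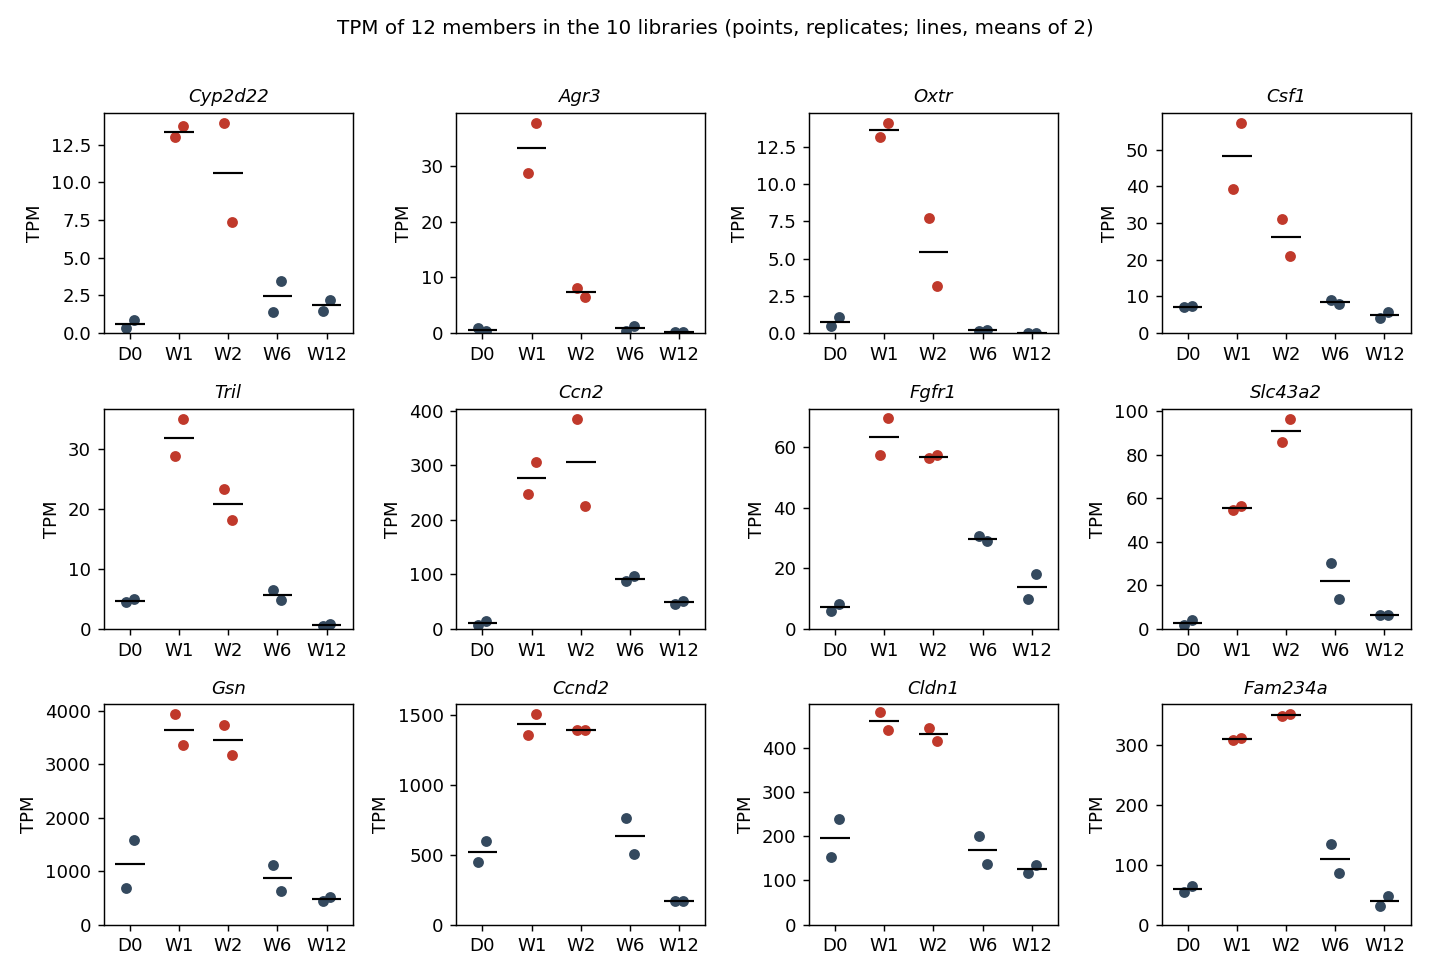
TPM of 12 members in the 10 libraries; points are replicates (W1 and W2 in red, the others in dark blue) and lines are means of 2 replicates, with a linear axis from 0 in each panel. *Agr3*, *Oxtr*, *Csf1* and *Tril* are highest at W1 and lower at W2, *Ccn2*, *Fgfr1* and *Slc43a2* stay above D0 at W6, and *Tril* and *Ccnd2* are lowest at W12.

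The genes on either side of the limit differed little. Ranks 96 to 100 (*Slc8b1*, *Tpbgl*, *Dab2ip*, *Cntfr* and *Sostdc1*) had scores of 0.86 to 0.85, and the next 5 genes (*Gm10812*, *Lrig1*, *Galt*, *Sema6c* and *Acsbg1*) had scores of 0.84 to 0.83. *Lrig1*, a marker of upper follicle stem cells, was at 57.3 and 75 TPM at D0, 129 and 112 at W1, 242 and 215 at W2, 121 and 36.8 at W6, and 11.7 and 13.7 at W12, so that its W1 libraries and W6 replicate 1 were close.

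Between W1 and W2 the score itself favours a small difference, so the members' counts are given beside those of all genes and nothing is read from them. With limma, 0 members passed an adjusted P of 0.05, whereas 0.114% of all genes tested did, 0.0458% as higher and 0.0686% as lower at W2. At an unadjusted P under 0.05 there were 8 members and 1900 genes, and with only the 4 libraries of W1 and W2 in the fit 3 members and 80 genes were called, against 15 genes with all libraries. The median log2 difference was -0.02 over the members and -0.03 over all genes. *Agr3* differed by -2.03 ± 0.29 (SE), *Hspa2* by -1.28 ± 0.21 (SE) and *Myadm* by -1.06 ± 0.20 (SE), and in each both W2 libraries lay below both W1 libraries.

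The level to which the members came back at W6 and W12 is bounded by the score, which asks for low levels at D0, W6 and W12 alike, so here too nothing is read from the members' counts. At W6, limma called 18 members different from D0, against 32.4% of all genes tested. Of the members, 13 were higher and 5 were lower, against 18.3% and 14.1%, and with quantile normalization there were 10 higher and 10 lower, while over all genes 2091 of the 4164 called were then higher. *Gm21586* and *Mir7238* were listed at 0 in all D0 and W6 libraries, so their difference is 0. The median log2 difference was 0.02 over the members and 0.08 over all genes. *Ccn2* stood above D0 at W6 by 3.0 ± 0.33 (SE), *Slc43a2* by 2.53 ± 0.35 (SE), *Fgfr1* by 1.94 ± 0.26 (SE), *Kif26b* by 1.88 ± 0.29 (SE), *Sostdc1* by 1.84 ± 0.35 (SE) and *Esyt3* by 1.76 ± 0.26 (SE). The members below D0 at W6 included *Gm13305*, *Gm21104* (-1.41, SE 0.33), *Creb5* (-1.15, SE 0.32), *Il11ra2* and *Il11ra1*. In 8 members, W6 kept at least 50% of the log2 rise from D0 to the mean of W1 and W2: *Sostdc1* (68%), *Fgfr1* (66%), *Esyt3* (65%), *Ccn2* (65%), *Slc43a2* (59%), *Kif26b* (52%), *Dkk3* (51%) and *Adgrl2* (51%). Without D0 replicate 2, whose sex markers went against its label, 14 members and 2356 of 13110 genes were called, and without W6 replicate 2, with its fibroblast marker *Dcn* at 51.2 TPM, 26 members and 3474 genes, against 4251 genes with every library.

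At W12, limma called 42 members different from D0, against 43.0% of all genes tested. Of the members, 4 were higher and 38 were lower, against 17.9% and 25.1%. The median log2 difference was -0.49 over the members and -0.08 over all genes. With median-ratio scaling of the libraries, 5 members were higher and 32 lower. The split of all genes called then turned from 2352 higher and 3290 lower to 2947 higher and 2916 lower. *Ccn2* stood above D0 at W12 by 2.09 ± 0.33 (SE), *Dkk3* by 1.43 ± 0.42 (SE), *Slc43a2* by 0.97 ± 0.35 (SE) and *Fgfr1* by 0.85 ± 0.26 (SE). The members below D0 included *Gpc4* (-1.65, SE 0.19), *Tril*, *Gm13305*, *Ccnd2*, *Snx18*, a sorting nexin of membrane remodelling (-1.05, SE 0.17), and *Tenm2* (-1.37, SE 0.23). *Pkib* went from 13.0 and 29.9 TPM at D0 to 2.51 and 1.43 TPM at W12, a log2 difference of -2.83 ± 0.55 (SE). The count was 21 without W12 replicate 1, 22 without W12 replicate 2 and 33 without D0 replicate 2. In the same fits the count over all genes went from 5642 of 13110 to 3362, 3668 and 3737. The marker sums of T cells and Langerhans cells, Merkel cells and endothelium, led at W12 by the few genes named above, moved with this comparison. Whether such cells were present, and their part in it, was not tested.

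**Figure D4:**
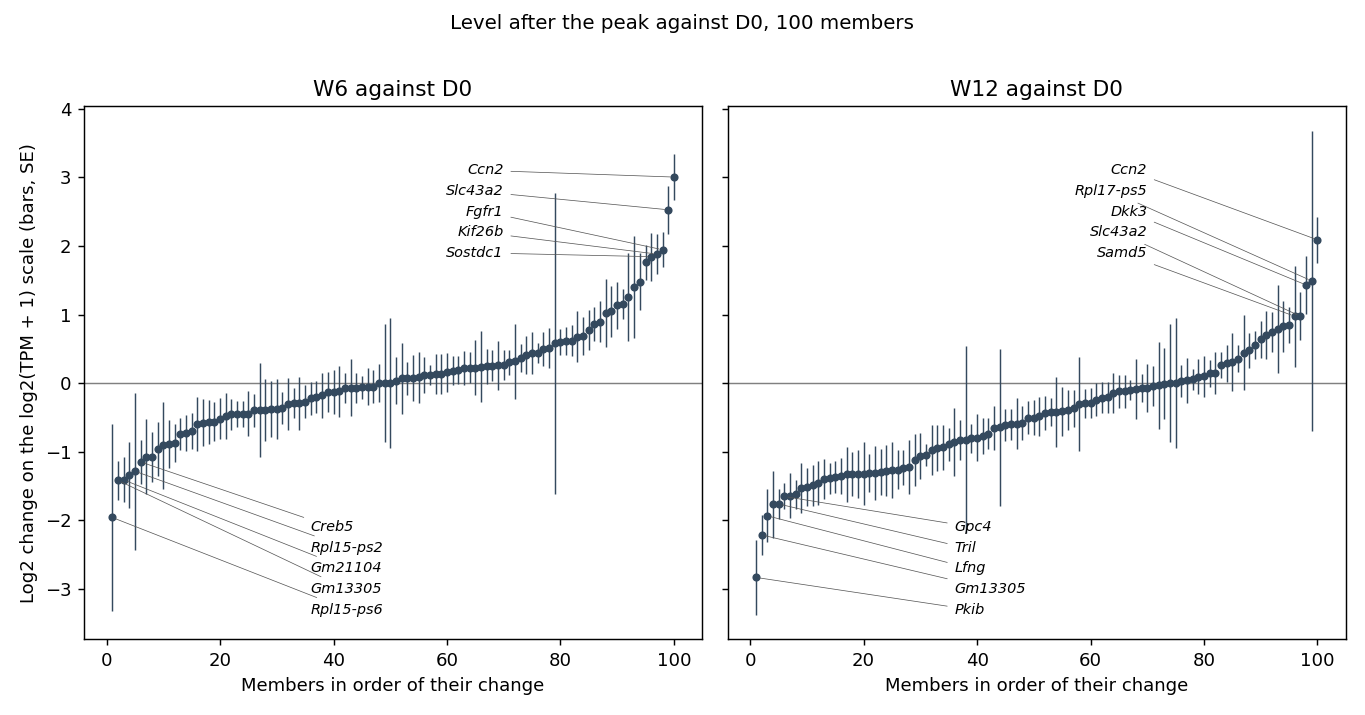
Log2 difference of each of the 100 members at W6 (left) and W12 (right) against D0 on the log2(TPM + 1) scale, in order of the difference, with bars for the SE of the limma fit. At W6, 50 points lie above 0 and 48 below, and at W12 25 lie above and 73 below; both panels share the D0 libraries, and the score that chose the members used all of these means.

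Between W6 and W12, limma called 24 members, against 20.2% of all genes tested, and of these 0 were higher and 24 lower at W12, against 6.66% and 13.5%. The median log2 difference was -0.54 for the members and -0.16 for all genes. Scaling the libraries by median ratios brought the median of all genes to -0.01, and then 1 member was higher and 17 were lower, while the split of all genes called turned from 873 higher and 1769 lower to 1171 higher and 957 lower. The members lower at W12 than at W6 included *Tril* and *Ccnd2* (above), *Gpc4* (-1.20, SE 0.19), *Adgrl2* (-1.36, SE 0.22), *Snx18* (-0.99, SE 0.17) and *Fam234a* (-1.44, SE 0.25). They also included *Sostdc1* (-1.91, SE 0.35) and *Fgfr1* (-1.10, SE 0.26), each of which had stood above D0 at W6. Without W12 replicate 1, 4 members and 761 of all genes were called, and without W12 replicate 2, 12 members and 1285 of all genes, against 2642 of all genes with every library.

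Features that the score did not use were compared with those of all ranked genes, as a description. Protein-coding genes made up 88% of the members and 89.3% of all ranked genes, and pseudogenes 5% and 4.08%. The longest annotated transcript had a median of 3478 bases in members and 3056 in all ranked genes, with a GC content of 53.0% and 49.8%. By tertiles of transcript length over all ranked genes, the short group held 25 members, the middle group 30 and the long group 44, and the median scores of all genes in these groups were -0.54, -0.42 and -0.26. The part of transcript length in the pattern was not tested. Some members outside chromosome 4 were also neighbours, such as *Arrb1* and *Tpbgl*, 17311 bases apart, and *Agr3* and *Sostdc1*, 364403 bases apart on chromosome 12.

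The promoter windows of 68 members were searched on both strands for the letters AACAAT and ACAATGG, short forms of the sequence that SOX proteins recognise, which share 5 letters. The first occurred in 7 members (10.3%) and in 7.0% of all ranked genes with a window, and the second in 0 members and in 2.38% of all. The 7 members were *Gm21586*, *Csf1*, *Pkib*, *Snx18*, *Sfxn3*, *Arhgap21* and *Cntfr*. A match in 300 bases is a description and not a binding site. The windows of *Csf1* and *Pkib*, the highest-scoring of these with a stated role, are shown with the matched letters in capitals, which read ATTGTT where the match is on the opposite strand.
Csf1 promoter, chr3:107760420-107760719 (minus strand): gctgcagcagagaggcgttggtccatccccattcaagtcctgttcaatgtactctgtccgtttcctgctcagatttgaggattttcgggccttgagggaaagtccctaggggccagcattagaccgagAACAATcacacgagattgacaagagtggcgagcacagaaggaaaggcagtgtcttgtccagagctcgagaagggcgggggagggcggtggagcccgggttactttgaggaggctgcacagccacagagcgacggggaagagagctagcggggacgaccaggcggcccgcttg
Pkib promoter, chr10:57645619-57645918 (plus strand): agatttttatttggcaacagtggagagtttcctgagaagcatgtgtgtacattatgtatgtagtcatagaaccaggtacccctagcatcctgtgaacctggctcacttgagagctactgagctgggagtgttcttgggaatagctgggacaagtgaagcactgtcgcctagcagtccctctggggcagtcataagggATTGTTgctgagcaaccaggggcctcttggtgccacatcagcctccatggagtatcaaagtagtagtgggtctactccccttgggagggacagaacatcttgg

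Of 20 fixed gene lists for cell types and pathways of the skin, 3 had any member. The lists hold 2 to 27 ranked genes each, and 100 of all 13005 ranked genes are members, so nothing is read from this count. The lists with a member were the Hedgehog, Wnt and BMP list, the extracellular matrix list and the list of the upper follicle, the last through *Sostdc1*. In 0 of the 20 lists was the summed TPM higher in all 4 libraries of W1 and W2 than in all other 6. The summed level of the upper follicle list went from 1991 and 1586 TPM at D0 to 6264 and 6816 at W1 and 9306 and 11466 at W2, and then stood at 16662 and 7509 at W6 and 2156 and 2609 at W12, so that W6 replicate 1 was above the peak libraries.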

How the data were processed

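RNA was measured in 10 RNA-seq libraries of sorted EpdSCs, 2 biological replicates for each of the 5 time points, and group and replicate were taken from the sample labels. RNA was amplified with a low-input SMARTer kit. The authors trimmed reads with Skewer, quantified transcripts with Salmon 1.4.0 against a GENCODE index of GRCm38 with the transgene added, summed them to genes with Tximport 1.12.3 and deposited TPM per gene. Each library's deposited TPM sum to 1000000, so depth is unknown and no counting interval is given. A table of the authors' own comparison of embryonic placode cells (fold changes and P values) and the placode libraries were not used.

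Genes were scored on log2(TPM + 1), with a mean of at least 1 TPM. Means of the 5 times were fitted with limma 3.58.1 (R 4.3.3) over all 10 libraries and all 13110 genes, with eBayes and a mean-variance trend, and P values were adjusted by Benjamini-Hochberg over all of them. The fit was tested on simulated data. The study used DESeq2 on counts, which TPM do not permit. For genes with low TPM, changes on the log2(TPM + 1) scale come out too small. Alternatives changed the pseudocount, filter, scaling, libraries, replicate block and variance trend. Shared sequence was measured as the share of 31-base words of a gene's transcripts found in another gene of GENCODE M21.

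The members and the 20 gene lists were chosen with earlier results of these data known, and the functional groups were made after the members' names were seen. Because the score used the means of all 5 times, the limma counts of members are a description, and no P value is given for a single member. Genes named are the 30 highest scores, the ranks next to the limit, members in the lists, the smallest adjusted P values in each direction and up to 4 members for each group. Other members are named to complete their groups, and *Galt*, *Ccl27a*, *Il6st*, *Osmr* and *Il6ra* were chosen after their values were seen. Same-numbered replicates came from different mice, so the numbers pair no samples. Of the members, 2 enter the counts but are not reported here by name.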

Additional observations from a re-analysis of the deposited data

How the results depend on the processing

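The choice of the 100 genes depended in part on the settings. Taking the lowest of the 4 peak libraries minus the highest of the other 6 left 66 of the 100, and leaving out 1 library at a time left 74 to 96, with 74 without D0 replicate 2 and 77 without W6 replicate 2. A mean of at least 5 TPM left 78 (in that case 78 members pass the filter), a pseudocount of 0.1 or leaving out W12 left 82 each, and the other 4 settings left 94 to 96. In all 18 alternatives 34 members were kept, and *Kifc3*, *Tpbgl*, *Dab2ip*, *Cntfr* and *Sostdc1* were kept in under 50% of them. When 1 library was left out and the 100 genes were chosen anew, 88 to 97 of them had their peak libraries above all others. The share of all ranked genes was not counted in these settings, so nothing is read from this.

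The limma counts of members describe values that also chose them. For W2 against W1, 1 member was called after quantile normalization, 3 with only the 4 libraries of the comparison and 0 to 2 without 1 library (2 each without a D0 or a W6 library). For W6 against D0, 8 were called with no filter on low values, 5 with only the 4 libraries and 12 to 26 without 1 library. For W12 against D0, 22 were called with no filter and 21 to 47 without 1 library. For W12 against W6, 10 were called with no filter, 9 with only the 4 libraries and 4 to 33 without 1 library. Counts over all genes moved in the same fits: without 1 library they were 0 to 83, 2356 to 5047, 3362 to 6291 and 761 to 3223 of 13110 in these comparisons in turn, and with only the 4 libraries 80, 1094, 3940 and 887. After quantile normalization, 16 of 13110 genes were called for W2 against W1. With no filter, 3102, 5284 and 2425 of 38965 genes were called for W6 against D0, W12 against D0 and W12 against W6. More genes are tested with no filter, and with 4 libraries the spread is estimated from fewer samples. Where a left-out library leaves 1 at a time point, that sample is assumed to vary like the others.

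With the replicate number as a block, 0, 14, 38 and 21 members were called in the comparisons W2 against W1, W6 against D0, W12 against D0 and W12 against W6. In the same fits 6, 3761, 5259 and 2163 of all 13110 genes were called. The correlation of same-numbered deviations was 0.18, -0.13, 0.093 and -0.11. With 2 pairs, crossed numbers, chosen after seeing the data, gave 16 members (W6 against D0) and 26 members (W12 against W6). Over all 13110 genes these fits called 4291 and 2666.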
